A study of Mus musculus with 6 samples.

Results

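Cytochrome P450 enzymes of families 1 to 3 are haem proteins held in the endoplasmic reticulum membrane, where they receive electrons from the reductase encoded by Por and oxidise drugs, pollutants, steroids and fatty acids. In liver their genes are controlled mainly by ligand-activated receptors, chiefly the aryl hydrocarbon receptor AHR for family 1, CAR for the Cyp2b genes and PXR for the Cyp3a genes. They also follow the position of the hepatocyte between portal and central vein and, in mice, the sex-dependent rhythm of growth hormone. The genes were taken by symbol, as protein-coding genes named Cyp1, Cyp2 or Cyp3 with a subfamily letter and a number and with at least 10 counts over the 6 libraries. This gave 48 of the 54232 genes counted, in 15 subfamilies. Another 10 genes with such names, among them Cyp2w1 and Cyp2j7 without a count, fell below that minimum. Symbols with a further letter after the number, such as Cyp3a41a, were not taken.

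The libraries were made from liver RNA of male C57BL/6 mice on chow, 8 to 10 weeks old, with 3 libraries per genotype. Titles of 3 DKO and 1 SKO libraries carry a pair of numbers whose meaning is not given, and the spread that the p-values below rest on may be technical in part. DKO mice (Fxr-/-Xbp1LKO) lacked FXR, the bile acid receptor encoded by Nr1h4, and had Xbp1 deleted in the liver. SKO mice (Fxr-/-Xbp1fl/fl) also lacked FXR but kept floxed Xbp1, so the comparison asked what loss of liver XBP1, which switches on genes of the unfolded protein response, changes in FXR-null liver. FXR was missing in both groups, the labels do not name the Cre driver, and livers of other genotypes were not analysed here.

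Total counts per library were 16966422 to 21107674. Levels are given as normalised CPM, counts scaled to a common library size, and a log2 fold change is DKO over SKO with its standard error. A gene was called when its edgeR quasi-likelihood p, adjusted by Benjamini-Hochberg over 13986 genes, was under 0.05. Xbp1 stood at 77.0 ± 16.2 CPM in DKO and 246 ± 18.9 CPM in SKO (SD, n = 3 each, as for all means below; log2 -1.68 ± 0.14, edgeR adjusted p = 0.000146). Nr1h4 was counted in both groups, at 97.3 ± 3.34 CPM in DKO and 98.4 ± 5.93 CPM in SKO (log2 -0.02 ± 0.07, edgeR adjusted p = 0.891), which does not check an allele whose missing exons are not given here. Of 6 hepatocyte markers, 4 fell in DKO, with summed levels of 50039 to 60588 CPM in DKO and 77346 to 104670 CPM in SKO, among them Alb (log2 -0.89), Apoa1 (log2 -0.78) and Serpina1c (log2 -1.01). The other 2 were not called, and the highest log2 fold change among the 6 was 0.594. Alb and Apoa1 lost their call without SKO replicate 2, and Apoa1 also without SKO replicate 3 (edgeR adjusted p up to 0.0503 and 0.0749). Markers of other cells moved as well, beside 10.3% of all genes called higher and 9.70% called lower. Of these markers, 7 of 11 stellate and mesenchymal, 3 of 7 macrophage and 3 of 6 cholangiocyte markers rose. None of 6 endothelial or 5 tested lymphocyte markers were called. The risers with the smallest p were Dcn, Rgs5 and Col1a2 (log2 0.69, 0.60 and 1.38) for stellate and mesenchymal cells, Cd68, Marco and Adgre1 (log2 1.05, 1.16 and 0.72) for macrophages, and Spp1, Epcam and Krt19 (log2 1.27, 1.24 and 1.26) for cholangiocytes. Of these, Col1a2, Adgre1, Epcam and Krt19 lost the call on leaving out SKO replicate 2, among other libraries. The most abundant endothelial markers, Stab2 and Kdr, had log2 values of -0.04 and -0.22. In bulk liver, fewer cells of a type and less RNA per cell cannot be told apart.

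The summed normalised level of these P450 genes was lower in DKO, and its makeup differed. The 48 genes summed to 30814 ± 1988 CPM in DKO and 38019 ± 1776 CPM in SKO. Cyp2e1, the ethanol-inducible P450 of pericentral hepatocytes, gave 17.8% to 20.4% of that sum in DKO libraries and 35.6% to 41.3% in SKO libraries. Cyp3a11, the main PXR-regulated P450 of mouse liver, gave 43.0%, 38.1% and 38.7% in DKO and 24.0%, 19.6% and 18.2% in SKO. Neither share overlapped between the groups. The other 46 genes together held 39.2% to 41.5% of the sum in DKO and 40.4% to 41.4% in SKO, although their summed level was 12545 ± 1063 CPM in DKO and 15502 ± 846 CPM in SKO. As a part of all counts before normalisation, the 48 genes took 3.17% to 3.47% in DKO and 3.42% to 3.61% in SKO, which overlap, so the separation of the groups by their sums rests on the scaling.

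**Figure D1:**
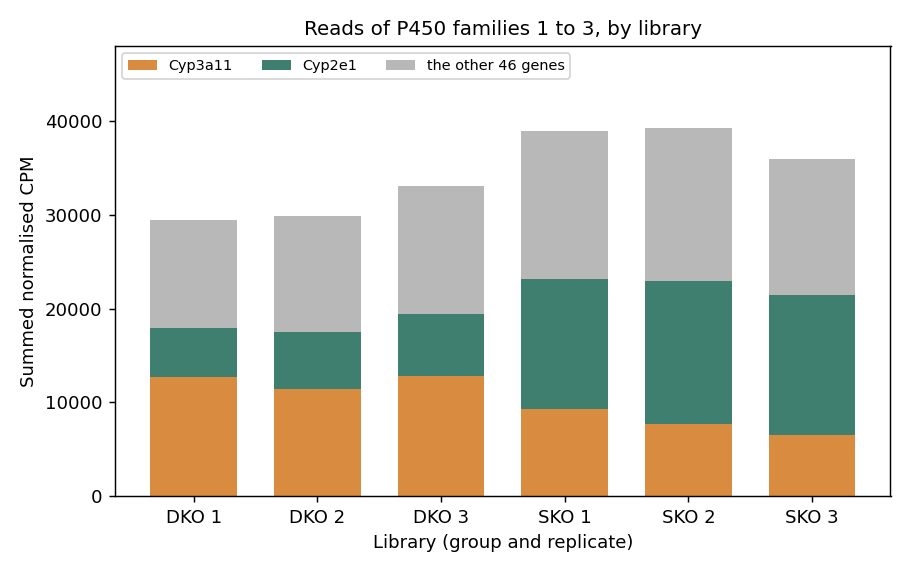
Summed normalised CPM of the 48 genes in each library (3 DKO, then 3 SKO), stacked as Cyp3a11, Cyp2e1 and the remaining 46 genes. The Cyp2e1 block is 5238 to 6617 CPM in DKO and 13854 to 15274 CPM in SKO, while the Cyp3a11 block is 11378 to 12805 CPM in DKO and 6544 to 9336 CPM in SKO.

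Of the 48 genes, 45 passed the filter on low counts and were tested, and edgeR called 11 of them lower and 5 higher in DKO. Over all 13986 genes, 9.70% were called lower and 10.3% higher, against 24.4% and 11.1% of the tested P450 genes. Abundance bears on this reading. Among the 1501 genes averaging 100 CPM or more, 26.1% were called lower and 5.93% higher, and of the 23 P450 genes at such levels 8 were lower (34.8%) and 2 higher (8.70%). The median log2 fold change was -0.16 over the tested P450 genes and 0.01 over all genes. The 3 libraries of each group did not overlap for 25 of the tested P450 genes, 10 with DKO above and 15 with DKO below, where 20.2% and 19.4% of all genes were apart in these directions. A change of at least 2-fold was reached by 4 of the genes that fell (Cyp2c67, Cyp2c68, Cyp2e1 and Cyp2u1) and by 4 that rose (Cyp1b1, Cyp2a4, Cyp2d12 and Cyp3a44), where 1.27% and 4.10% of all genes were called with such a change. Of the 16 calls, 10 held in each of the 12 alternative fits, namely those of Cyp1a2, Cyp2c67, Cyp2c68, Cyp2e1, Cyp2f2, Cyp2r1 and Cyp2u1 (lower) and of Cyp1b1, Cyp2d12 and Cyp3a44 (higher). Cyp3a44, counted among the 5 called higher, passed the filter through its DKO libraries alone. Under library totals alone, which put the median over the whole table at 0.225 on the log2 scale, the split was 8 lower and 11 higher, and with upper-quartile factors it was 8 lower and 6 higher.

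**Figure D2:**
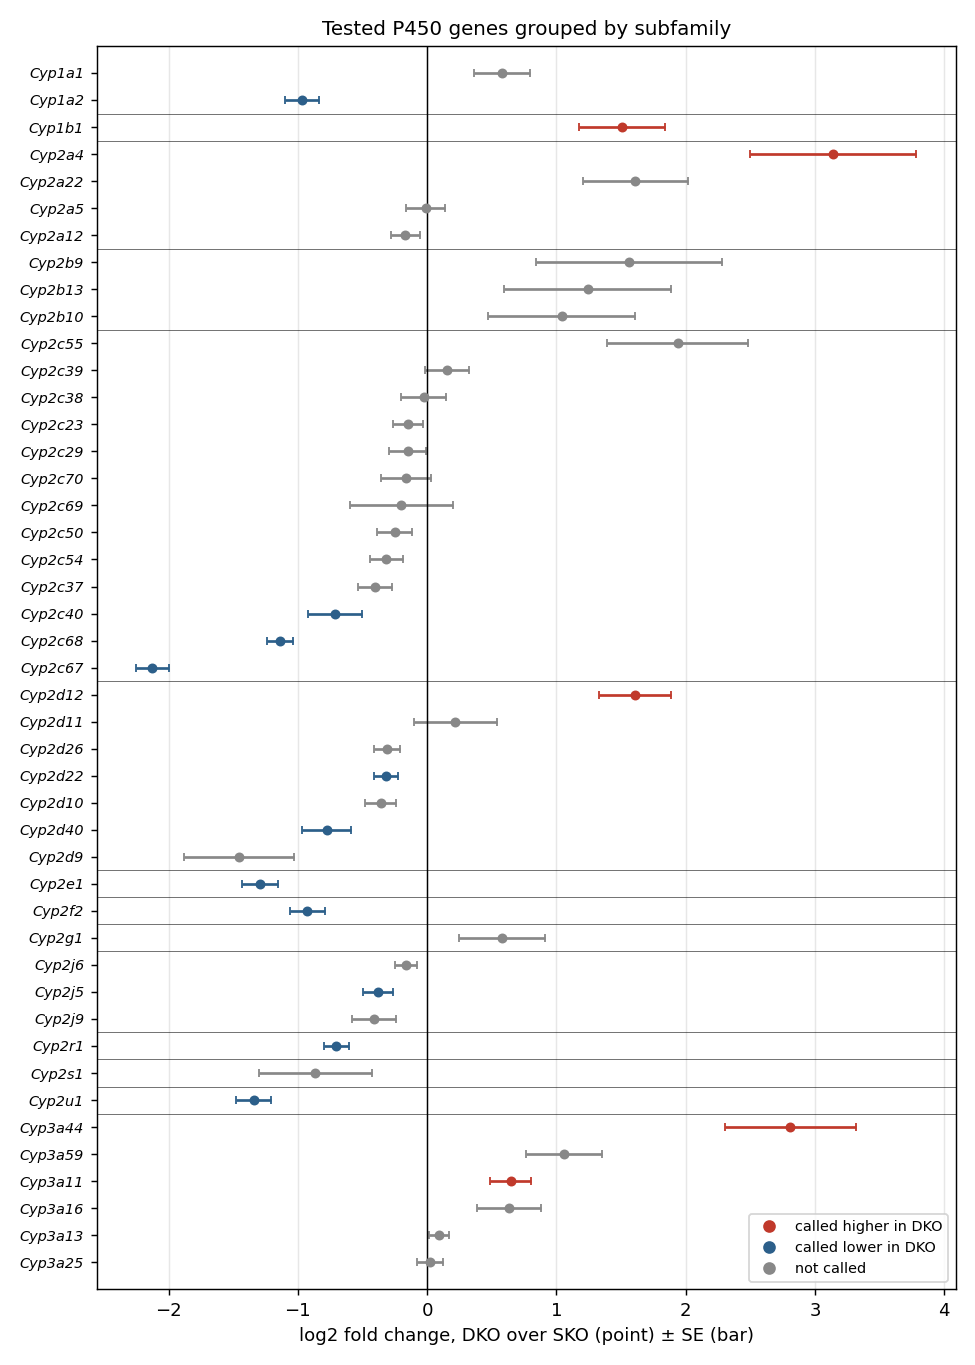
Log2 fold change, DKO over SKO (points), with its standard error (bars), for the 45 tested P450 genes grouped by subfamily, with called genes in colour. Values run from -2.13 (Cyp2c67) to 3.14 (Cyp2a4), and the Cyp2a, Cyp2c and Cyp2d subfamilies hold genes on both sides of 0.

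**Figure D3:**
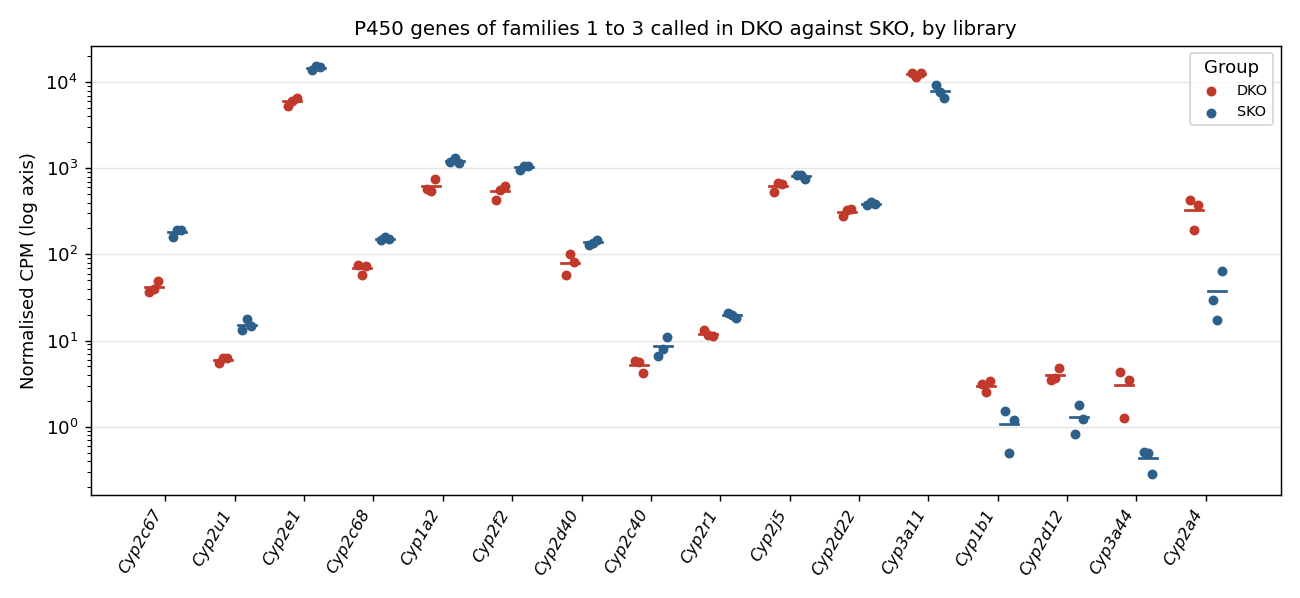
Normalised CPM on a log axis of the 16 called P450 genes in each library, DKO left and SKO right, with horizontal lines at the group means. DKO and SKO libraries do not overlap for any of the 16 genes.

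Sequences of the most similar genes are set out first, because they bear on how reads were divided. Cyp2a4 and Cyp2a5, a steroid 15-alpha-hydroxylase and a coumarin 7-hydroxylase gene, had coding sequences 98.4% identical, with 23 differing bases of 1482, and 36.1% of the 50-base windows in Cyp2a4 transcripts also occur in Cyp2a5 transcripts. The 250 bases before their RefSeq start sites (GRCm38.p6, plus strand, chr7:26306942-26307191 and chr7:26835089-26835338) differ at 4 of 249 aligned positions, which lie 232, 120, 90 and 46 bases before the Cyp2a4 start and are shown in capitals.
Cyp2a4: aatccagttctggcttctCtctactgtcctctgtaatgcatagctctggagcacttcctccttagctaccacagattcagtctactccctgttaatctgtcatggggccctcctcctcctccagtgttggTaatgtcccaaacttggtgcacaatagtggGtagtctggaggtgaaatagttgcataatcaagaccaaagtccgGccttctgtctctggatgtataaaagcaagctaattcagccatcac
Cyp2a5: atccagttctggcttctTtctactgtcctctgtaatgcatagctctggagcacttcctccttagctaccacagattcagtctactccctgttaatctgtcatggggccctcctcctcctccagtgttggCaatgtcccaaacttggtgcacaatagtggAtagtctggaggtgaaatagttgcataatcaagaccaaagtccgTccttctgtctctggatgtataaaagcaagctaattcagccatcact

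RefSeq start windows of 300 bases (250 before, 50 after) were found for 42 of the 48 genes and searched on both strands. The letters CAAAGTCCA, a form of the site bound by the liver factor HNF4A, were in 7 of the 42 windows and in 0.475% of 32851 RefSeq windows. These were Cyp2c40, Cyp2c67, Cyp2c68, Cyp2c69, Cyp2c70, Cyp3a11 and Cyp3a16, which include close copies of one another. Among them Cyp2c67, Cyp2c68 and Cyp2c40 fell, Cyp3a11 rose, and Cyp2c69, Cyp2c70 and Cyp3a16 were not called. The upstream 250 bases of Cyp2c67 (minus strand, chr19:39649043-39649292), Cyp2c68 (minus strand, chr19:39741102-39741351) and Cyp3a11 (minus strand, chr5:145879855-145880104) show the match in capitals in 2 genes that fell and 1 that rose.
Cyp2c67: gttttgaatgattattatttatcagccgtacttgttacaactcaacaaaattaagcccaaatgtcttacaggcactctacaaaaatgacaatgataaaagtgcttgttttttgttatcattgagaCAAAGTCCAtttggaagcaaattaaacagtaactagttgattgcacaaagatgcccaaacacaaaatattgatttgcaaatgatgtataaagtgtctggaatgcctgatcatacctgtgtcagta
Cyp2c68: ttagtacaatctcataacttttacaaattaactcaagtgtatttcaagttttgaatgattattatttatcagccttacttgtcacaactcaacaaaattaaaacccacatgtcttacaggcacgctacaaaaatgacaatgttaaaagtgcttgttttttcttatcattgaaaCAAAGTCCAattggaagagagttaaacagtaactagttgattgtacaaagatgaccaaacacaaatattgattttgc
Cyp3a11: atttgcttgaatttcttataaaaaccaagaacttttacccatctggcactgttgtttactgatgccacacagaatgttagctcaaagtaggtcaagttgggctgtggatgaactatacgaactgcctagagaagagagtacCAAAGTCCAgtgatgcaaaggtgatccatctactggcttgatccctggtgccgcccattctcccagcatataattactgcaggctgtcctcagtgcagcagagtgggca
The core ACGTG, found in sites of XBP1 and of E-box factors, was in the windows of Cyp2e1 and Cyp2j6 and in 19.6% of all windows. The AHR core GCGTG was in 6 of the 42, Cyp1a1 and Cyp1b1 included, and in 32.4% of all. The STAT5 form TTCNNNGAA was in none of the 42 and in 8.30% of all. The letters TATAAA of the TATA box, taken at any position, were in 24 of the 42 and 13.6% of all. Their positions relative to the start ran from -234 (Cyp3a11) to 40 (Cyp2c40), so the count is of letters and not of TATA boxes.

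IRE1, the sensor that splices Xbp1 mRNA, can also cut other mRNAs at CTGCAG within a stem-loop, and Cyp2e1 and Cyp1a2 are known substrates in XBP1-deficient liver. In the first 1400 coding bases, CTGCAG was in 6 of 10 P450 genes called lower with a coding sequence of that length, in 5 of 5 called higher and in 20 of 29 not called, beside 74.9% of 6377 tested genes. The letters were present in genes of either direction. Whether they lie in a stem-loop was not tested, so these counts cannot show which mRNAs IRE1 cuts. Cyp2e1 holds them at coding positions 1016, 1292 and 1363, Cyp1a2 at 223 and 787 within that stretch, and Cyp3a11, which rose, at 994. The sites are shown with 12 bases on either side, the core in capitals.
Cyp2e1 at 1016: caagccgtgcccCTGCAGtccgagacagga
Cyp2e1 at 1292: tcaaggcgttttCTGCAGgaaagcgcgtgt
Cyp2e1 at 1363: ttgtctgctattCTGCAGcattttaatctg
Cyp1a2 at 223: tatggggacgtgCTGCAGatccgcatcggc
Cyp1a2 at 787: ttcgtgctgtttCTGCAGaaaactgtccag
Cyp3a11 at 994: atccagaaaaaaCTGCAGgatgagatcgat

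Family 1 enzymes, the classical AHR targets, oxidise planar aromatic molecules. Cyp1a2, which clears caffeine and aromatic amines, fell in DKO. Cyp1a2 was at 580, 544 and 745 CPM in DKO libraries, against 1170, 1325 and 1152 CPM in SKO libraries. The lowest SKO library was thus well above the highest DKO library, and the log2 fold change was -0.96 ± 0.13 (edgeR adjusted p = 0.0012). Cyp1a1, its neighbour on chromosome 9 and the most AHR-inducible member, was at 2.18, 2.10 and 2.49 CPM in DKO and at 1.52, 1.42 and 1.58 CPM in SKO. Its groups did not overlap, but the change was not called (log2 0.58 ± 0.22, edgeR adjusted p = 0.0902). Cyp1b1, a P450 known mainly from mesenchymal and steroid-responsive cells, rose in DKO. It was at 3.11, 2.54 and 3.37 CPM in DKO, against 1.52, 0.493 and 1.18 CPM in SKO (log2 1.51 ± 0.34, edgeR adjusted p = 0.0124). Summed levels of the 11 stellate and mesenchymal markers were 730 to 1044 CPM in DKO and 452 to 512 CPM in SKO, with none of them at 0 in every library, and their part in the Cyp1b1 result was not tested. Ahr itself rose (log2 0.48 ± 0.11, edgeR adjusted p = 0.0118), a call lost without SKO replicate 2 (edgeR adjusted p = 0.0621). Of 4 tested AHR targets outside the P450 genes, the quinone reductase gene Nqo1 rose (log2 0.87) and the glucuronosyltransferase gene Ugt1a6b fell (log2 -0.52).

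Cyp2e1 carried the largest fall in reads of any of the 48 genes. It was at 5238, 6096 and 6617 CPM in DKO, against 13854, 15274 and 14856 CPM in SKO. The groups were apart by more than the spread of either, and the log2 fold change was -1.29 ± 0.14 (edgeR adjusted p = 0.000309). Per kilobase of exon, Cyp2e1 was the highest of the 48 genes in both groups, at 2773 CPM per kilobase in DKO and 6794 in SKO. Cyp3a11 came next, at 2412 in DKO and 1543 in SKO, on a union of annotated exons of 5093 bases that is long for a P450 gene and lowers this value. Cyp2a5 followed at 872 in DKO and 879 in SKO. Cyp2f2, which oxidises naphthalene and is the periportal counterpart of Cyp2e1, fell as well. Its levels were 433, 556 and 625 CPM in DKO, against 959, 1055 and 1052 CPM in SKO (log2 -0.93 ± 0.13, edgeR adjusted p = 0.00162). The falls included a pericentral and a periportal gene, and position in the lobule was not measured in these bulk libraries.

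Other zonation genes were read beside Cyp2e1 and Cyp2f2. Over all genes 9.70% were called lower and 10.3% higher, and 26.1% and 5.93% among genes averaging 100 CPM or more. Of 22 pericentral genes, 7 of them P450 genes, 2 fell (9.09%), Cyp2e1 and Cyp1a2 as described. Another 7 rose (31.8%), none of the 7 a P450 gene. The risers with the smallest p were the ammonium transporter gene Rhbg (log2 1.83) and the amino acid transporter genes Slc1a2 (log2 0.61) and Slc1a4 (log2 1.65). The other pericentral P450 genes were Cyp2a5, Cyp2c29, Cyp2c37, Cyp2c50 and Cyp2c54, and none was called. Of 13 periportal genes, 4 fell (30.8%) and 2 rose (15.4%). The falls included Cyp2f2, the immunoglobulin receptor gene Pigr (log2 -0.97) and the histidine ammonia-lyase gene Hal (log2 -0.72). Of the 7 pericentral risers 4, Glul, Oat, Lgr5 and Gulo, each lost the call in 1 or more alternative fits (edgeR adjusted p up to 0.187).

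The Cyp2a subfamily summed to 2651 ± 448 CPM in DKO and 2405 ± 245 CPM in SKO, while its parts changed unequally. Cyp2a4, which is higher in female than in male mouse liver, had the largest fold change of the 48 genes. It was at 425, 194 and 371 CPM in DKO, against 29.8, 17.2 and 65.0 CPM in SKO. Every DKO library was above every SKO library, 8.82-fold in the fit (log2 3.14 ± 0.64), but the spread was wide (edgeR adjusted p = 0.0356). The call was lost without a filter and on leaving out any library other than SKO replicate 3, with edgeR adjusted p-values reaching 0.117. Cyp2a5 was at 1843, 1483 and 2100 CPM in DKO and at 1714, 2122 and 1629 CPM in SKO, with a log2 fold change of -0.01 ± 0.15. Of the counts given to this pair, Cyp2a4 took 11.5% to 18.7% in DKO libraries and 0.804% to 3.84% in SKO libraries. Reads from the shared windows could move counts between the genes in either group. The other pair, Cyp2a12 and Cyp2a22, had 97% identical coding sequences. Cyp2a22 was at 47.4, 22.1 and 48.3 CPM in DKO, against 17.2, 8.99 and 12.6 CPM in SKO (log2 1.61 ± 0.41, edgeR adjusted p = 0.0505), and 5 of the alternative fits called it higher. Cyp2a12 was at 474 ± 69.4 CPM in DKO and 533 ± 6.97 CPM in SKO, not called.

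The Cyp2b genes, which CAR induces, were higher on average in DKO but varied too much within groups to be called by edgeR over the 6 libraries. Cyp2b10, the standard readout of CAR activity, was at 103, 73.0 and 110 CPM in DKO and at 85.6, 30.1 and 24.1 CPM in SKO. SKO replicate 1 lay inside the DKO range, and without it Cyp2b10 was called higher, with a log2 fold change of 1.81 where the fit of 6 libraries gave 1.04 ± 0.57 (edgeR adjusted p = 0.286). Cyp2b9, a female-predominant gene, was at 193, 86.2 and 164 CPM in DKO and at 88.9, 15.9 and 46.5 CPM in SKO (log2 1.56 ± 0.72, edgeR adjusted p = 0.215). Of the alternative fits, only limma-voom called Cyp2b9 higher (limma-voom adjusted p = 0.0494). Cyp2b13, with a coding sequence 92.7% identical to that of Cyp2b9, was at 16.0, 4.93 and 11.4 CPM in DKO and at 8.13, 2.19 and 3.60 CPM in SKO. In all 3 genes SKO replicate 1 was the highest SKO library and DKO replicate 2 the lowest DKO library. The windows around the start sites of Cyp2b9 and Cyp2b13 were 99.3% identical. Nr1i3, which encodes CAR, was at 93.8 ± 12.4 CPM in DKO and 110 ± 20.1 CPM in SKO and was not called.

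Of 13 Cyp2c genes, which encode arachidonic acid epoxygenases and steroid and drug hydroxylases, 3 fell and none rose. The falls lay side by side on chromosome 19. Cyp2c67 (39608842 to 39649051) was at 36.4, 39.2 and 49.6 CPM in DKO, against 160, 194 and 191 CPM in SKO. This was the largest fall of the tested P450 genes (log2 -2.13 ± 0.13, edgeR adjusted p = 1.98e-05). Cyp2c68 (39688834 to 39741054) was at 76.3, 58.4 and 73.0 CPM in DKO, against 148, 157 and 153 CPM in SKO (log2 -1.14 ± 0.10, edgeR adjusted p = 8.76e-05). Cyp2c40 (39767071 to 39812814) was at 5.75, 5.71 and 4.15 CPM in DKO and at 6.61, 7.95 and 11.1 CPM in SKO. Its call (log2 -0.71 ± 0.21, edgeR adjusted p = 0.0385) was lost in 8 of the 12 alternative fits, and 70.2% of its 50-base windows are shared with other genes. Cyp2c69 (39842814 to 39886799), the next gene, was at 3.55 ± 1.83 CPM in DKO and 4.11 ± 1.05 CPM in SKO, with overlapping groups (log2 -0.20 ± 0.40). Coding sequences of Cyp2c67, Cyp2c68 and Cyp2c69 were 96.5% to 97.7% identical, so the division of reads among these 4 genes is uncertain. Cyp2c67 took 32.3%, 40.2% and 40.4% of the counts of Cyp2c67 and Cyp2c68 together in DKO, against 52.0%, 55.2% and 55.6% in SKO.

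The remaining Cyp2c genes were not called. Cyp2c29, the highest of the subfamily, was at 1866, 1935 and 2036 CPM in DKO and at 2588, 2142 and 1742 CPM in SKO (log2 -0.15 ± 0.14). Cyp2c37, Cyp2c50 and Cyp2c54, a trio with 95.1% to 96.1% pairwise identical coding sequences, had log2 fold changes of -0.40, -0.25 and -0.32. Only Cyp2c37 of the trio had groups apart, at 193 to 233 CPM in DKO and 251 to 345 CPM in SKO (edgeR adjusted p = 0.0563). Cyp2c55, a CAR- and PXR-inducible gene, stood out on the other side. It was at 66.2, 23.1 and 44.1 CPM in DKO, against 6.53 to 16.5 CPM in SKO, but with its spread was not called (log2 1.94 ± 0.54, edgeR adjusted p = 0.0745), although 4 alternative fits, DESeq2 and limma-voom included, called it higher. Cyp2c70, which makes muricholic acids in mice, was at 317, 494 and 510 CPM in DKO and at 432, 590 and 455 CPM in SKO (log2 -0.16 ± 0.20). Cyp2c38 and Cyp2c39, with log2 fold changes of -0.03 and 0.15, had overlapping groups. Cyp2c23, an epoxygenase gene set apart from the cluster on chromosome 19, was at 277 ± 39.7 CPM in DKO and 307 ± 29.2 CPM in SKO. The whole subfamily summed to 4324 ± 410 CPM in DKO and 5128 ± 556 CPM in SKO, and the groups overlapped.

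The Cyp2d subfamily on chromosome 15 had summed levels that did not overlap, at 2363 ± 433 CPM in DKO and 3682 ± 188 CPM in SKO. Of its 7 genes, 2 fell and 1 rose. Cyp2d40 was at 57.9, 102 and 81.3 CPM in DKO, against 129, 136 and 149 CPM in SKO (log2 -0.78 ± 0.19, edgeR adjusted p = 0.0306). Cyp2d22 was at 277, 324 and 333 CPM in DKO, against 378, 404 and 382 CPM in SKO (log2 -0.32 ± 0.10, edgeR adjusted p = 0.0408). Both calls were fragile. That of Cyp2d22 was lost without any single library (edgeR adjusted p up to 0.146) and under upper-quartile or total-count scaling, and that of Cyp2d40 without any SKO library or DKO replicate 3 (up to 0.0996). Cyp2d9, a male-predominant testosterone 16-alpha-hydroxylase gene, had the largest difference in CPM of the subfamily. It was at 216, 671 and 492 CPM in DKO, against 1089, 1430 and 1268 CPM in SKO. The groups were apart, yet the spread within DKO kept it from a call in edgeR (log2 -1.46 ± 0.42, edgeR adjusted p = 0.0706), while DESeq2 and limma-voom called it lower. Cyp2d10 and Cyp2d26 also had groups apart, with log2 fold changes of -0.36 and -0.31 and edgeR adjusted p-values of 0.0561 and 0.0531. Cyp2d12, at low level, rose, with 3.49, 3.71 and 4.82 CPM in DKO against 0.826, 1.81 and 1.24 CPM in SKO (log2 1.61 ± 0.28, edgeR adjusted p = 0.00412). Its coding sequence is 92.1% identical to that of the far more counted Cyp2d9, and 10.8% of its 50-base windows occur there. Cyp2d11 was at 0.792 ± 0.128 CPM in DKO and 0.683 ± 0.139 CPM in SKO, not called.

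Further family 2 genes that fell have roles outside drug metabolism. Cyp2r1, the main vitamin D 25-hydroxylase gene, was at 13.1, 11.6 and 11.4 CPM in DKO, against 20.6, 19.7 and 18.3 CPM in SKO (log2 -0.70 ± 0.10, edgeR adjusted p = 0.00136). Cyp2u1, a long-chain fatty acid hydroxylase gene, was at 5.54, 6.30 and 6.22 CPM in DKO, against 13.3, 17.6 and 14.7 CPM in SKO (log2 -1.34 ± 0.13, edgeR adjusted p = 0.000199). Groups were well apart for both. Exons of Cyp2u1 overlap those of 4930534D22Rik on the other strand over 548 bases, and the labels do not say whether the counting used strand. Cyp2j5, an arachidonic acid epoxygenase gene abundant in liver, fell a little, with 527, 677 and 662 CPM in DKO against 838, 830 and 754 CPM in SKO. That call (log2 -0.38 ± 0.12, edgeR adjusted p = 0.0453) was lost under upper-quartile or total-count scaling and on leaving out any library other than DKO replicate 2, with edgeR adjusted p-values reaching 0.143. Cyp2j6 and Cyp2j9 were not called, with log2 fold changes of -0.16 and -0.41. Cyp2s1 and Cyp2g1 also had overlapping groups and were not called, at 0.482 ± 0.213 and 8.09 ± 1.58 CPM in DKO and at 0.891 ± 0.340 and 5.38 ± 2.72 CPM in SKO. Cyp2t4, Cyp2j8 and Cyp3a57 did not pass the filter, with 18, 6 and 35 counts over the DKO libraries and 10, 4 and 33 over the SKO libraries.

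The Cyp3a subfamily, whose enzymes act on many drugs, steroids and bile acids, was the subfamily with a higher sum in each DKO library, apart from Cyp1b with its 1 gene. It reached 13324 ± 842 CPM in DKO and 8841 ± 1422 CPM in SKO. Cyp3a11 made up most of it, at 12674, 11378 and 12805 CPM in DKO, against 9336, 7689 and 6544 CPM in SKO. The lowest DKO library was above the highest SKO library (log2 0.65 ± 0.16, edgeR adjusted p = 0.0173), though leaving out DKO replicate 3, SKO replicate 2 or SKO replicate 3 ended the call, with edgeR adjusted p-values reaching 0.0793. Cyp3a44, a female-predominant gene, rose at a low level. It was at 4.28, 1.27 and 3.47 CPM in DKO, against 0.508, 0.493 and 0.281 CPM in SKO (log2 2.81 ± 0.51, edgeR adjusted p = 0.00652). It passed the filter on low counts through its DKO libraries alone, and its coding sequence is 94.9% identical to that of Cyp3a11. Cyp3a44 held 0.0112% to 0.0338% of the counts of both genes in DKO and 0.0043% to 0.00641% in SKO. Cyp3a59 was at 62.8, 32.8 and 40.9 CPM in DKO, against 26.8, 21.9 and 17.1 CPM in SKO, with groups apart but no call (log2 1.06 ± 0.29, edgeR adjusted p = 0.0573), although 5 alternative fits, DESeq2 and limma-voom included, called it higher. Its close copy Cyp3a25, 97.5% identical in coding sequence, was at 777, 673 and 700 CPM in DKO and at 713, 756 and 651 CPM in SKO (log2 0.02 ± 0.10). Cyp3a13 and Cyp3a16 were not called either (log2 0.09 and 0.63). Nr1i2, which encodes PXR, was at 80.2 ± 6.72 CPM in DKO and 88.0 ± 13.9 CPM in SKO and was not called (log2 -0.13).

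**Figure D4:**
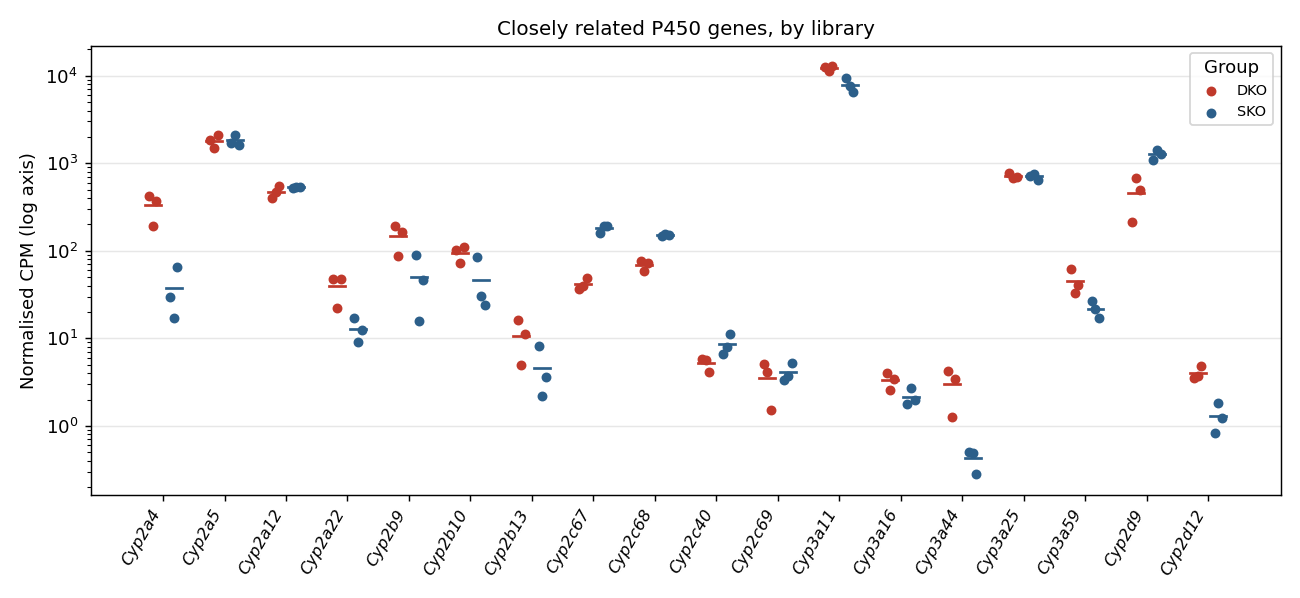
Normalised CPM on a log axis of 18 closely related P450 genes in each library, DKO left and SKO right, with lines at the group means. Close copies differ in their values: Cyp2a4 is at 194 to 425 CPM in DKO and 17.2 to 65.0 CPM in SKO, while Cyp2a5 overlaps, and Cyp2c67 and Cyp2c68 are apart while Cyp2c69 overlaps.

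Neighbours on a chromosome differed in their values. In the tandem array on chromosome 7, from Cyp2s1 at 25802475 to Cyp2t4 at 27158668, the adjacent Cyp2b10, Cyp2b13, Cyp2b9 and Cyp2a4 had log2 fold changes of 1.04, 1.24, 1.56 and 3.14. Farther along, Cyp2a5 and Cyp2a12 were at -0.01 and -0.17 on the same scale, Cyp2a22 between them was at 1.61, and Cyp2f2 was at -0.93.

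Genes known to differ between the sexes of the mouse were read as 2 lists, since all mice here were male. The female-predominant list includes Cyp2a4, Cyp2b9, Cyp2b13, Cyp2c38, Cyp2c39, Cyp2c40, Cyp2c69, Cyp3a16 and Cyp3a44 of the P450 genes above. The male-predominant list includes Cyp2d9. Values of these lists are thus in part those of the P450 genes. Of 14 tested female-predominant genes, Cyp2a4 and Cyp3a44 rose, and Cyp2c40 and the thioesterase gene Acot3 fell (log2 -0.68). That is 14.3% in each direction, where 10.3% of all genes were called higher and 9.70% lower. The median log2 fold change was 0.53 for the 14 genes, against 0.01 for all genes. Of 13 male-predominant genes 3 fell (23.1%) and none rose, with a median of -0.74. The 3 were the steroid dehydrogenase gene Hsd3b5 (log2 -1.76), Ugt2b38 (log2 -1.86) and Selenbp2 (log2 -1.76), and each lost its call in 4 or more of the alternative fits (edgeR adjusted p up to 0.127). Summed levels were 602 to 905 CPM in DKO and 345 to 519 CPM in SKO for the female-predominant list. Cyp2a4 and Cyp2b9, already described, averaged 330 and 148 CPM in DKO and 37.3 and 50.4 CPM in SKO. The difference in this sum is thus mainly theirs and is no separate result. For the male-predominant list the sums were 1498 to 2703 CPM in DKO and 3367 to 4356 CPM in SKO. Cyp2d9 alone averaged 460 CPM in DKO and 1262 CPM in SKO, a large part of that difference. DKO replicate 1 was the lowest of all libraries for the male-predominant sum, for Cyp2d9 and for Cyp2d40, and DKO replicate 2 was the lowest DKO library for Cyp2a4, Cyp2a22, Cyp2b9, Cyp2c55 and Cyp3a44.

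Partners and regulators of the P450 enzymes changed in part. Over all genes 9.70% were called lower and 10.3% higher. Among genes averaging 100 CPM or more these shares were 26.1% and 5.93%. Por was at 825 ± 95.8 CPM in DKO and 743 ± 115 CPM in SKO, and Cyb5a, the cytochrome b5 gene that also donates electrons, was at 1594 ± 64.2 CPM in DKO and 1494 ± 165 CPM in SKO, both not called. Among 8 partner genes 3 fell (37.5%) and 2 rose (25.0%). They included the haem-binding partner gene Pgrmc2 (log2 -0.68), the cytochrome b5 reductase gene Cyb5r1 (log2 0.93) and the epoxide hydrolase gene Ephx1 (log2 0.84). Cyb5r3, another that fell (log2 -0.37), lost the call with library totals and on leaving out any of 4 libraries (edgeR adjusted p up to 0.169). For haem, Alas1, the rate-limiting enzyme gene of its synthesis, was not called (log2 0.06). Of 12 haem genes 3 fell (25.0%): Cpox (log2 -0.46), Fech (log2 -0.33) and the biliverdin reductase gene Blvra (log2 -0.78). Under total-count scaling Cpox and Fech were not called, and Fech was also not called without SKO replicate 2 (edgeR adjusted p up to 0.221). Of 28 tested regulators 8 fell (28.6%) and Ahr alone rose (3.57%). Foxa1 and Nr5a2 among the 8 each lost the call in 8 alternative fits (adjusted p up to 0.355 and 0.849), and Nr3c1 lost it with library totals (edgeR adjusted p = 0.0972). Ppara (log2 -0.66) and Nr0b2 (log2 -0.94), the gene of the FXR-induced repressor SHP, fell, while Hnf4a was at 764 ± 58.2 CPM in DKO and 710 ± 114 CPM in SKO, not called. Of 17 CAR and PXR targets outside the P450 genes, 5 rose (29.4%) and Ces2a fell (log2 -1.44). The risers included the glutathione transferase genes Gstm3 (log2 2.28) and Gstm1 (log2 0.82). The other risers, Abcb1a, Slco1a4 and Aldh1a1, each lost the call in 5 or more alternative fits (adjusted p up to 0.132, 0.147 and 0.176). Of 25 tested P450 genes with symbols outside the rule used here, 4 rose (16.0%) and none fell. Among the risers were Cyp4f16 (log2 1.30), Cyp39a1 (log2 0.91) and Cyp4a31 (log2 1.21), the last not called without DKO replicate 1 (edgeR adjusted p = 0.0522). Whether these 25 genes differ as a set from the 48 genes was not tested.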

How the data were processed

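Liver RNA of 3 DKO and 3 SKO libraries was sequenced. The authors deposited whole-number counts per Ensembl gene for each library; cutadapt 1.13, STAR, HTSeq 0.6.1p1 and DESeq2 with build mm10 are named per the submitters' processing notes, without roles or settings, and they do not state strand use. Symbols, exons and coding sequences came from GENCODE M21 (GRCm38), in which 54165 of 54232 gene IDs matched and 67 did not, and start-site windows from RefSeq (GRCm38.p6).

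Counts were fitted in R 4.3.3 with edgeR 4.0.16 (TMM factors, filterByExpr, robust quasi-likelihood test), with the filter at about 0.526 CPM in 3 or more libraries, and p-values were adjusted by Benjamini-Hochberg over 13986 genes. The procedure was tested on simulated data with 1 common spread for every gene, which does not cover genes that vary widely between libraries. Total counts of 16966422 to 21107674 put 3 counts at 0.126 to 0.191 CPM, which covers counting error only. Alternatives were DESeq2 size factors, upper-quartile factors, library totals, DESeq2 1.42.0, limma 3.58.1 (voom), no filter, and each library left out. Groups came from the genotype labels, and replicate numbers follow the order of deposit. Xbp1, Nr1h4, every called P450 gene, the most abundant gene of each subfamily and, from each other list, the 3 called genes with the smallest p (with none called, the 2 most abundant) were named, with Por, Cyb5a, Alas1, Nr1i2, Nr1i3, Ahr and Hnf4a whatever their result. Other P450 genes of the families could be named with their values. Some genes that this rule names are not reported here. Glul, Oat, Lgr5, Gulo, Abcb1a, Slco1a4, Aldh1a1, Foxa1, Nr5a2, Nr3c1 and Cyb5r3 were named after their values were seen. The genes and lists were chosen with earlier results of these data known.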

Additional observations from a re-analysis of the deposited data

How the results depend on the processing

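Of 540 single-gene results (45 genes under 12 alternatives), 449 kept their direction and side of the threshold, 36 lost a call, 34 gained one and 21 changed sign, all of 9 genes that were not called. With library totals alone the log2 fold changes turned to 0.045 (Cyp2a12), 0.212 (Cyp2a5), 0.070 (Cyp2c23), 0.071 (Cyp2c29), 0.188 (Cyp2c38), 0.027 (Cyp2c69), 0.052 (Cyp2c70) and 0.057 (Cyp2j6), and with upper-quartile factors to 0.051 (Cyp2a5) and 0.032 (Cyp2c38). With 1 library left out they ran from -0.133 to 0.111 for Cyp2a5, -0.283 to 0.001 for Cyp2c29, -0.210 to 0.133 for Cyp2c38, -0.545 to 0.152 for Cyp2c69, -0.282 to 0.027 for Cyp2c70 and -0.042 to 0.064 for Cyp3a25. Genes called over the whole table numbered 2803, 4387 with library totals alone and 1419 to 2739 with 1 library left out (1419 without SKO replicate 2, 1784 without SKO replicate 3, 1831 without DKO replicate 3). P450 genes called higher numbered 5, but 11 with library totals, 8 with DESeq2, 9 with limma-voom and 3 to 7 with 1 library left out. P450 genes called lower numbered 11, but 15 with DESeq2, 15 without a filter, 12 with limma-voom, 8 with library totals or upper-quartile factors and 7 to 11 with 1 library left out. The lowest counts, 3 higher and 7 lower, came without DKO replicate 3, and 7 lower were also found without SKO replicate 2 or SKO replicate 3. Library totals moved the log2 ratios of subfamily sums to -0.744 (Cyp1a), 0.362 (Cyp2a), -0.029 (Cyp2c), -0.426 (Cyp2d), -1.078 (Cyp2e), -0.714 (Cyp2f), -0.136 (Cyp2j), -0.481 (Cyp2r), -1.119 (Cyp2u) and 0.813 (Cyp3a), without reversing one. The scaling sets these values by construction, and other causes were not tested. No paired analysis was possible because the labels give no replicate numbers shared between the genotypes. Depth limits Cyp2s1, Cyp2d11 and Cyp3a44, whose SKO levels lie within a few times the level of 3 counts. In single libraries it also limits Cyp1b1 (0.493 CPM in SKO replicate 2) and Cyp2d12 (0.826 CPM in SKO replicate 1).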
